A study of Mus musculus with 19 samples.

Results

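The genes of glycolysis and of glycogen metabolism were followed gene by gene and isoform by isoform in mouse quadriceps, a limb muscle made mainly of fast fibers. The set held 36 genes, picked by gene name from the annotation of the arrays, with the phosphofructokinases left out, of 30214 gene names on the array. They were read by 61 probes of 39429. All 36 genes passed the filter on dim probes, by which 24741 genes were tested. The samples came from male congenic C57Bl6J mice of 4 groups at 180 days of age. CTR mice were wild type, and AR113Q mice are a knock-in model of spinal and bulbar muscular atrophy (SBMA) that carries an androgen receptor with an expanded polyglutamine tract. From 40 days of age each genotype received either normal chow (NCD) or high-fat food (HFD), which gave 5 samples each of CTR-NCD, AR113Q-NCD and AR113Q-HFD and 4 of CTR-HFD. The knock-in is not restricted to muscle.

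Glycolysis breaks glucose down to pyruvate in the cytosol, and lactate dehydrogenase turns the pyruvate into lactate when flux is high. Glycogen is the store of glucose in muscle. It is built by glycogenin, glycogen synthase and the branching enzyme, and it is released as glucose 1-phosphate by glycogen phosphorylase, which phosphorylase kinase switches on. Several steps have a form that fast muscle favors and a form found in most tissues or in liver or brain, so the balance between partner isoforms is read along with the level of each gene.

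Total RNA was labeled with Cy3 and hybridized to one-color arrays. A level is the log2 of the processed signal of the gene's brightest probe minus the 75th percentile of its array, so that 0 is the signal of a probe at that percentile and 1 unit is a doubling. Levels are compared between samples and not between probes. Genes were tested by limma over all 4 groups, with Benjamini-Hochberg adjustment over 32026 probes, and a gene was called at an adjusted p under 0.05. Counts and leading values are also given after quantile normalization, because many of these probes are among the brightest on the array. Between 67.1 and 80.1% of probes per array were well above background and 0 spots were flagged as saturated. The labels do not say whether each sample was a single mouse, so the p-values measure the spread between samples. The arrays sat on 5 slides, which each held samples of every group except 1 slide that lacked CTR-HFD.

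On NCD, 21 of the 36 genes were lower in AR113Q than in CTR quadriceps and 3 were higher (Gbe1, Pgam1 and Pygl), while 12 did not pass the test. Over all 24741 genes 9.04% were called lower and 8.31% higher. The median log2 fold change of the members was -0.32, against -0.06 over all genes. The 75th percentile that was subtracted (log2 signal) lay between 9.515 and 9.749 in CTR-NCD and between 9.649 and 10.053 in AR113Q-NCD. The part of this scaling term in the members' values was not tested. After quantile normalization 11 members were lower and 6 higher (8.24% and 10.1% of all genes), and their median was -0.11, against 0.01 over all genes. Without AR113Q-NCD replicate 2 the higher count was 1, and without CTR-HFD replicate 3 it was 5. The members called lower came from both pathways, and the lowest log2 fold changes were those of Phka1, a regulatory subunit of phosphorylase kinase, and the array's Pgm2, a phosphoglucomutase. In whole muscle, fewer fibers of a type and less RNA per fiber cannot be told apart.

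On HFD, 20 members were lower in AR113Q and 3 were higher (Stbd1, Eno1 and Aldoc), against 10.2% and 7.74% of all genes. Their median log2 fold change was -0.41, against -0.08 over all genes. The subtracted 75th percentile lay between 9.508 and 9.86 in CTR-HFD and between 9.861 and 10.178 in AR113Q-HFD. Quantile normalization gave 12 lower and 5 higher (7.97% and 10.3% of all genes) with a median of -0.05, against -0.01 over all genes. Median centring of each array left 7 lower and 1 higher on NCD and 9 lower and 0 higher on HFD. The higher count on HFD was 0 without CTR-HFD replicate 2 or without AR113Q-HFD replicate 1, and 1 without AR113Q-HFD replicate 2. The 20 members called lower on HFD were also called lower on NCD, and Ppp1r3c was called lower on NCD but not on HFD. These comparisons share no sample, but all arrays share the estimate of the spread. The 8 members G6pc3, Ganc, Gpd1, Pgam2, Pgm2, Phka1, Phkb and Phkg1 were called lower on both diets under both scalings. At the 75th percentile scaling no member was called higher on both diets, and 9 members (Gpd2, Gpi1, Gys1, Hk1, Hk3, Ldhb, Pgm1, Pgm5 and Pygb) were called in neither. After quantile normalization Eno1, Gbe1 and Gys1 were called higher on both diets and Pgm5 on NCD.

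The groups did not overlap for 16 members that were lower on NCD and for 18 that were lower on HFD, against 8.07% and 8.46% of all genes. Within the slides, 20 of the 21 members called lower on NCD were lower on all 5 slides, and all 20 called lower on HFD were lower on the 4 slides that held both genotypes. Hk2 on NCD was the exception, with 4 of 5 slides. These members were called on the same arrays, so the slide counts are no separate support. The share of all genes that were lower on every slide was not computed.

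**Figure D1:**
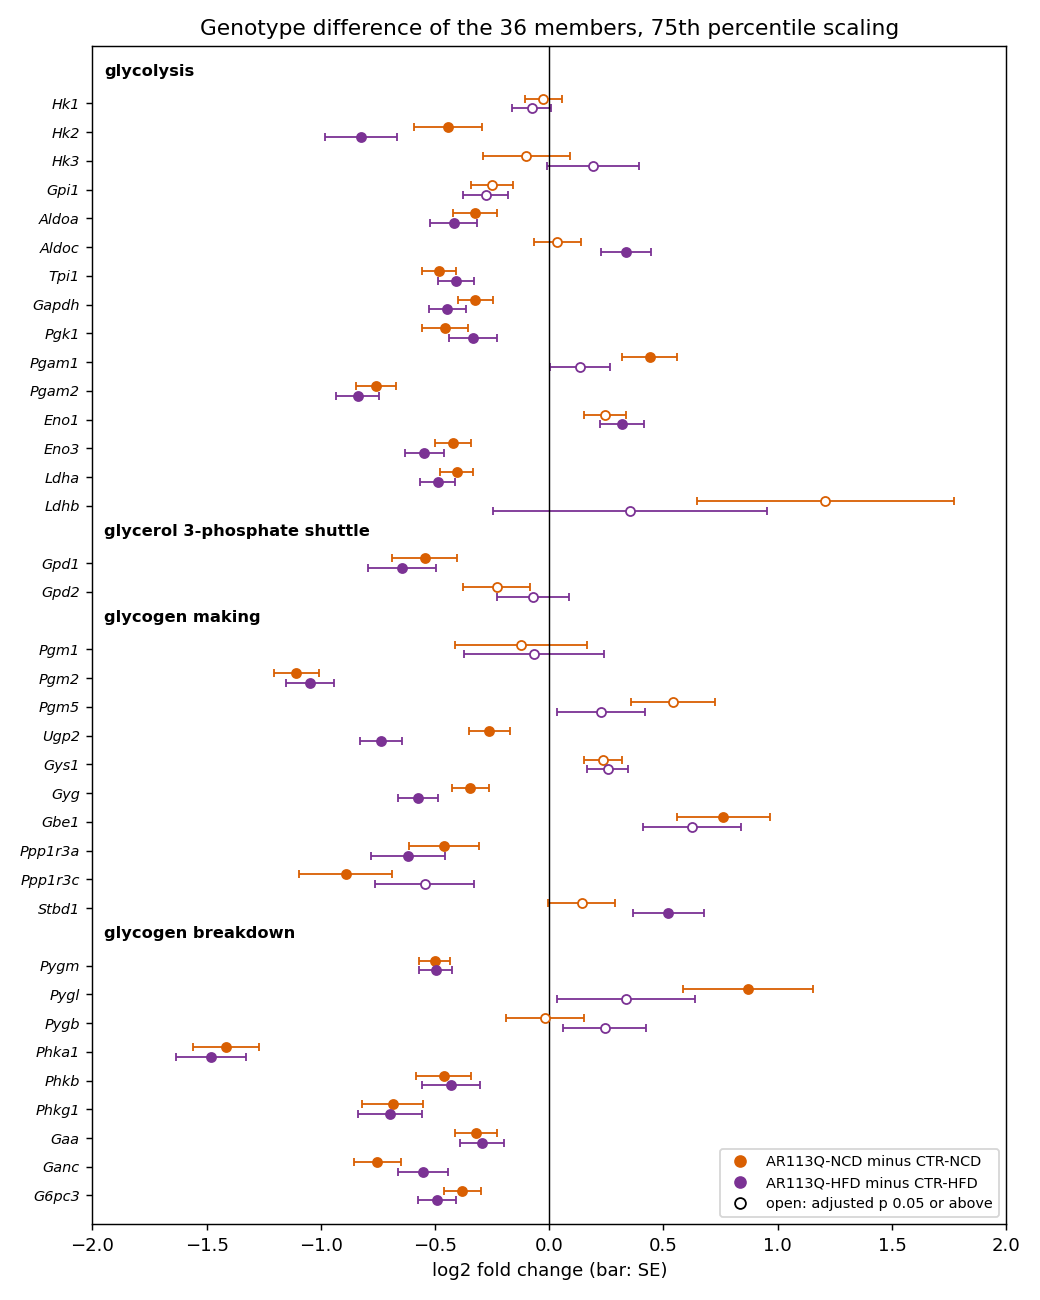
Log2 fold change of each of the 36 genes (x axis) between AR113Q and CTR, on NCD in orange and on HFD in purple, with the SE as a bar, grouped by role. Filled points passed an adjusted p of 0.05. Most filled points lie left of 0 on both diets, with Phka1 farthest at -1.42 on NCD and -1.48 on HFD.

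The partner isoforms of phosphoglycerate mutase changed in opposite directions on NCD. Pgam2 encodes the muscle form of the enzyme, which moves the phosphate of 3-phosphoglycerate, and Pgam1 the form found in most tissues. The promoter sequences of this pair and of the phosphorylase pair Pygm and Pygl are shown as examples of pairs whose partners moved apart in AR113Q-NCD muscle. Each line holds the 250 bases before the transcription start in RefSeq (build GRCm38.p6), 5′ to 3′ on the strand of the gene, with E-boxes (CANNTG, the motif of myogenic bHLH factors) in capitals. The windows are chr11:5803797-5804046 (minus strand) for Pgam2, chr19:41911621-41911870 (plus) for Pgam1, chr19:6384158-6384407 (plus) for Pygm and chr12:70227684-70227933 (minus) for Pygl.
Pgam2: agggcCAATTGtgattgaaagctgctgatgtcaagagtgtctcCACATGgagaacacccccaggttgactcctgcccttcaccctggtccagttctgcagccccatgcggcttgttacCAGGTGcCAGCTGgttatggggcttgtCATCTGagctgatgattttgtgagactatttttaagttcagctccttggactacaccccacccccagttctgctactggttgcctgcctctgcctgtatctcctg
Pgam1: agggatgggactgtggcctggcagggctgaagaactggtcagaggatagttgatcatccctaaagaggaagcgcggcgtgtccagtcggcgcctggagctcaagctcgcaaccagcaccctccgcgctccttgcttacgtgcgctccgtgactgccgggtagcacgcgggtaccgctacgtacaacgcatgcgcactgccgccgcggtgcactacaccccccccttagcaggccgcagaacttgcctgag
Pygm: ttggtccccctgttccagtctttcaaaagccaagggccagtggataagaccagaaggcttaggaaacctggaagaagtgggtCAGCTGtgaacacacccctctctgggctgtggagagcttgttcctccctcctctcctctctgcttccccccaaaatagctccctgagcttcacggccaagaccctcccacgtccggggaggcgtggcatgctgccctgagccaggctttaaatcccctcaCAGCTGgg
Pygl: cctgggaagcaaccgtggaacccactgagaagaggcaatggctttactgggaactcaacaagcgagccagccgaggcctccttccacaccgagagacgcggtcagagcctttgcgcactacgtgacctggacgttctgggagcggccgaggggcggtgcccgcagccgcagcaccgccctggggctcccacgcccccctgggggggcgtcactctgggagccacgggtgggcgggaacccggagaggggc

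The Pgam2 window holds 5 E-boxes and the Pygm window 2, and the windows of Pgam1 and Pygl hold 0. Other pairs whose balance shifted on NCD did not all share this pattern. The Hk2 window holds 0 and the Hk1 windows 1 and 2, and the Eno3 window holds 1 and the Eno1 windows 2, 0 and 0. The Ldha windows hold 2 each and the Ldhb window 0, and the Aldoa windows hold 1 each and the Aldoc windows 0. The Gpd2 windows hold 3 and 0, and Gpd1 has no window. Promoter windows were found for 35 of the 36 members (44 windows, since some genes have several starts). Of these windows 70.5% held an E-box on either strand, against 66.2% of all 32851 windows in the table. The hypoxia response motif ACGTG, which can overlap an E-box, was held by 38.6% of member windows and 16.6% of all windows. The shares were 50% and 32.7% for the SP1 motif GGGCGG, 4.55% and 12.4% for the TATA motif TATAAA, and 20.5% and 16.1% for the androgen receptor half-site AGAACA. These are matches of letters and do not show binding, and the shares were not tested.

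Pgam2 (NM_018870, probe at chromosome 11, 5701822 to 5703040 in build mm9) stood at 8.59, 8.54, 8.50, 8.45 and 8.76 in the CTR-NCD samples and at 7.79, 7.80, 7.70, 8.01 and 7.75 in AR113Q-NCD. On HFD its levels were 8.40, 8.65, 8.50 and 8.60 in CTR and 7.53, 7.83, 7.54, 7.91 and 7.69 in AR113Q. Every AR113Q sample lay below every CTR sample on both diets. The log2 fold change was -0.76 ± 0.09 (SE) on NCD (adjusted p 1.85e-05) and -0.84 ± 0.09 on HFD (adjusted p 1.5e-05), and quantile normalization gave -0.42 and -0.44, still called. Pgam1 (NM_023418) read 2.85, 2.83, 2.79, 2.47 and 2.47 in CTR-NCD and 2.97, 3.41, 3.14, 3.12 and 2.97 in AR113Q-NCD, so every AR113Q-NCD sample lay above every CTR-NCD sample (log2 fold change 0.44 ± 0.12, adjusted p 0.0187). Its HFD levels were 2.44, 2.52, 3.002 and 2.48 in CTR and 2.81, 2.76, 2.65, 2.57 and 2.94 in AR113Q, which overlapped (adjusted p 0.552).

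Of 15 glycolysis members 8 were lower and 1 higher on NCD, and 8 were lower and 2 higher on HFD. Over all genes 9.04% were lower and 8.31% higher on NCD, and 10.2% and 7.74% on HFD. Quantile normalization gave 2 lower and 2 higher on each diet. The shares of all genes were then 8.24% and 10.1% on NCD and 7.97% and 10.3% on HFD. The median of the glycolysis members was -0.324 on NCD and -0.335 on HFD, and 0 on both diets after quantile normalization. Aldoa, the muscle aldolase, had levels of 9.61 to 9.83 in the CTR-NCD samples and 9.24 to 9.69 in the AR113Q-NCD samples (log2 fold change -0.33 ± 0.10, adjusted p 0.0264), and the NCD call was lost in 10 alternatives, 6 of which left out 1 sample. Its probe was the brightest of every array, so that quantile normalization gave it the same value on all arrays and a change of 0 by construction. Gapdh, the dehydrogenase often used as a reference gene, had levels of 8.89 to 9.11 and 8.54 to 8.83 in the same groups (-0.32 ± 0.08, adjusted p 0.00682), and quantile normalization turned the value to 0.04. All 7 Gapdh probes were called lower on both diets at the 75th percentile scaling, from -0.77 to -0.32 on NCD and from -0.66 to -0.45 on HFD. Of the 6 dimmer ones, 3 were still called lower on both diets after quantile normalization (-0.63, -0.54 and -0.35 on NCD).

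Eno3, the muscle enolase, lay at 8.92 to 9.11 in CTR and 8.42 to 8.80 in AR113Q on NCD, and at 8.94 to 9.17 and 8.37 to 8.66 on HFD, with no overlap. Its log2 fold changes were -0.42 ± 0.08 and -0.55 ± 0.08 (adjusted p 0.00126 and 0.000224), and -0.06 and -0.11 after quantile normalization, not called. Ldha, the lactate dehydrogenase subunit of fast muscle, lay at 8.67 to 8.91 in CTR and 8.23 to 8.51 in AR113Q on NCD (-0.41 ± 0.07, adjusted p 0.000798), and its quantile value of -0.02 was not called. The 2 dimmer Ldha probes changed by more, -1.02 and -0.94 on NCD and -0.90 and -0.79 on HFD. They were called at both scalings, with quantile values of -0.94 and -0.75 on NCD and -0.78 and -0.58 on HFD, so the size of the Ldha change differed between probes. The triose phosphate isomerase Tpi1 (-0.48 ± 0.07, adjusted p 0.000249) and the phosphoglycerate kinase Pgk1 (-0.46 ± 0.10, adjusted p 0.00418) were lower too, and after quantile normalization Pgk1 was still called on NCD and Tpi1 was not. On HFD the Pgk1 call was lost in 11 alternatives, 6 of which left out 1 sample. The file places the Pgk1 probe on chromosome 3 although the gene lies on X, so signal from a near-identical copy cannot be told apart there. A dimmer Pgk1 probe on X gave -0.39 (adjusted p 0.00439). For Eno1, the enolase of most tissues, a near-identical copy likewise cannot be told apart from the gene.

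Of the hexokinases, which catalyze the entry step, only Hk2 was called on its brightest probe. Hk2, the insulin-responsive form of muscle, stood at 4.21, 3.73, 3.62, 4.02 and 4.09 in CTR-NCD and 3.19, 3.74, 3.54, 3.60 and 3.37 in AR113Q-NCD. On HFD it read 3.70, 4.24, 3.97 and 3.88 in CTR and 2.94, 3.29, 2.76, 3.42 and 3.19 in AR113Q, with no overlap. The log2 fold changes were -0.44 ± 0.15 on NCD, just past the threshold (adjusted p 0.0499; 0.0698 after quantile normalization) and lost in 19 alternatives, 12 of which left out 1 sample, and -0.82 ± 0.16 on HFD (adjusted p 0.00148). Hk1 was at -0.03 ± 0.08 and -0.08 ± 0.09, and Hk3 at -0.10 ± 0.19 and 0.19 ± 0.20, none called. A dimmer Hk1 probe was called higher on HFD (0.50, adjusted p 0.0133), unlike the brightest one.

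Ldhb, the lactate dehydrogenase subunit of heart and slow muscle, had the largest SD within a group of the 36 members, 1.47 in CTR-HFD. It read 5.53, 5.25, 5.69, 3.83 and 3.60 in CTR-NCD and 5.84, 6.11, 6.35, 6.10 and 5.55 in AR113Q-NCD. The HFD samples read 4.53, 4.08, 6.35 and 2.79 in CTR and 5.19, 4.52, 3.67, 4.87 and 5.71 in AR113Q. The AR113Q-NCD samples lay close together and high, while the CTR samples spread widely and overlapped them, and the log2 fold change of 1.21 ± 0.56 was not called (adjusted p 0.169). The mean level of 16 slow fiber genes spread as well. On NCD it lay between 0.97 and 3.5 in CTR and between 3.59 and 4.34 in AR113Q. On HFD it lay between -0.06 and 3.90 in CTR and between 1.01 and 3.49 in AR113Q. The part of slow fibers in the Ldhb values was not tested.

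**Figure D2:**
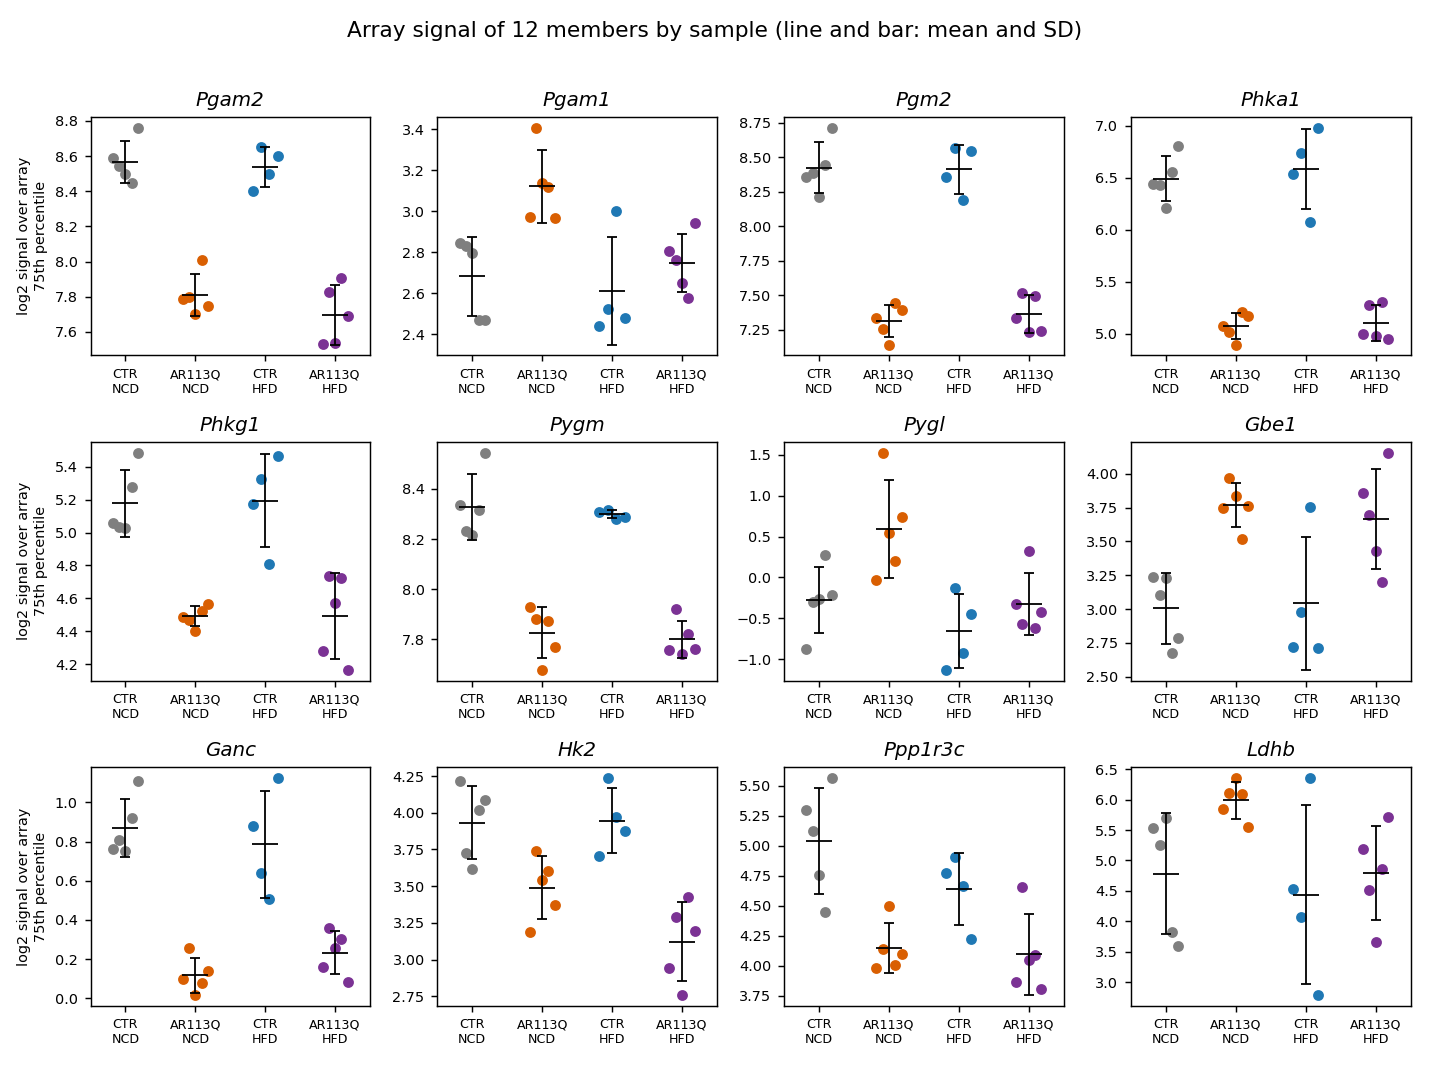
Level of 12 members (log2 signal over the 75th percentile of the array, y axis, a separate scale for each gene) in every sample of the 4 groups, with mean and SD in black. Pgam2, Pgm2, Phka1, Pygm and Ganc separate the genotypes on both diets, while Ldhb spreads from 2.79 to 6.35 within CTR-HFD.

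Most genes of the glycogen breakdown group, which also held the glucose 6-phosphatase G6pc3, were lower. Of 9 members 7 were lower and 1 higher on NCD, and 7 were lower on HFD, while quantile normalization left 6 and 5 lower. Over all genes 9.04% were lower and 8.31% higher on NCD, and 10.2% were lower on HFD. After quantile normalization 8.24% and 7.97% of all genes were lower. Phka1 (NM_008832, chromosome X, 99710704 to 99710763, mm9), the muscle alpha subunit of phosphorylase kinase, read 6.44, 6.43, 6.21, 6.55 and 6.80 in CTR-NCD against 5.07, 5.02, 4.89, 5.21 and 5.17 in AR113Q-NCD. Its HFD levels were 6.53, 6.73, 6.07 and 6.98 in CTR and 4.99, 5.28, 4.97, 5.30 and 4.95 in AR113Q. No AR113Q sample reached the lowest CTR sample, and the signal was 0.375 times that of CTR on NCD (log2 fold change -1.42 ± 0.14, adjusted p 6.3e-06) and 0.359 times on HFD (-1.48 ± 0.15, adjusted p 7.69e-06). Quantile normalization gave close values (-1.31 and -1.32).

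The other muscle subunits of the kinase were lower as well. Phkg1, the catalytic gamma subunit of muscle, was 5.06, 5.04, 5.03, 5.28 and 5.48 in CTR-NCD and 4.49, 4.47, 4.40, 4.53 and 4.57 in AR113Q-NCD (-0.69 ± 0.13, adjusted p 0.00171), and its change on HFD was -0.70 ± 0.14 (adjusted p 0.00229). Phkb, the beta subunit, changed by -0.46 ± 0.12 and -0.43 ± 0.13 (adjusted p 0.0128 and 0.0267). The forms expressed in other tissues, Phka2 and Phkg2, were at 0.19 and 0.20 on NCD and were not called, though Phkg2 was called higher after quantile normalization (adjusted p 0.0483). A dimmer Phkg1 probe was not called (-1.25 on NCD), and a dimmer Phkb probe was called on NCD alone (-0.73, adjusted p 0.00322).

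Pygm (NM_011224), the muscle glycogen phosphorylase mutated in McArdle disease, stood at 8.34, 8.23, 8.21, 8.31 and 8.54 in CTR-NCD and 7.93, 7.88, 7.68, 7.87 and 7.77 in AR113Q-NCD. On HFD the values were 8.31, 8.32, 8.28 and 8.29 in CTR and 7.76, 7.92, 7.74, 7.82 and 7.76 in AR113Q, with no overlap on either diet. Its log2 fold change was -0.50 ± 0.07 on NCD (adjusted p 7.03e-05) and -0.50 ± 0.07 on HFD (adjusted p 0.000129), and after quantile normalization -0.19 (called) and -0.12 (not called). Pygl, the liver form, was -0.88, -0.31, -0.26, 0.27 and -0.21 in CTR-NCD and -0.03, 1.52, 0.55, 0.20 and 0.74 in AR113Q-NCD, so the groups overlapped (0.87 ± 0.28, adjusted p 0.0432). That call was lost in 14 alternatives, 10 of which left out 1 sample. It was not called on HFD (0.34 ± 0.30), and the brain form Pygb was called on neither diet (-0.02 ± 0.17 and 0.24 ± 0.18).

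Ganc, a neutral alpha-glucosidase, read 0.76, 0.81, 0.75, 0.92 and 1.11 in CTR-NCD and 0.10, 0.26, 0.02, 0.08 and 0.14 in AR113Q-NCD, a change of -0.75 ± 0.10 (adjusted p 9.1e-05) that quantile normalization left at -0.76. On HFD it changed by -0.55 ± 0.11 (adjusted p 0.00197). Gaa, the lysosomal glucosidase lost in Pompe disease, was lower by a smaller step (-0.32 ± 0.09 and -0.29 ± 0.10), called only at the 75th percentile scaling, and its HFD call was lost in 19 alternatives, 12 of which left out 1 sample. Of its dimmer probes, 1 was called on NCD (-0.39) and the other on neither diet (-0.01 on NCD). G6pc3, a glucose 6-phosphatase of most tissues, changed by -0.38 ± 0.08 and -0.49 ± 0.08, called on both diets and scalings.

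The group of glycogen-making genes, which also held Stbd1 and Pgm5, was called in both directions. Of 10 members 5 were lower and 1 higher (Gbe1) on NCD. On HFD 4 were lower and 1 higher, and that 1 was Stbd1, which binds glycogen and does not make it. Over all genes 9.04% were lower and 8.31% higher on NCD, and 10.2% and 7.74% on HFD. After quantile normalization 2 were lower and 3 higher on NCD, and 4 lower and 3 higher on HFD. The shares of all genes were then 8.24% and 10.1% on NCD and 7.97% and 10.3% on HFD. The array's Pgm2 carries the accession NM_028132, which RefSeq names Pgm1, the main phosphoglucomutase that converts glucose 1-phosphate and glucose 6-phosphate, while the array's Pgm1 is RefSeq's Pgm2 (NM_025700) and was dim. The array's Pgm2 read 8.35, 8.39, 8.21, 8.45 and 8.71 in CTR-NCD and 7.34, 7.26, 7.14, 7.44 and 7.39 in AR113Q-NCD. In the HFD groups it read 8.36, 8.56, 8.19 and 8.54 in CTR and 7.34, 7.52, 7.24, 7.50 and 7.24 in AR113Q. The genotypes lay apart on both diets, at 0.464 and 0.484 times the CTR signal (-1.11 ± 0.10 and -1.05 ± 0.11, adjusted p 2.52e-06 and 6.44e-06).

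Gbe1, the glycogen branching enzyme, was higher on NCD. It was 3.24, 3.103, 3.23, 2.67 and 2.79 in CTR-NCD and 3.75, 3.97, 3.83, 3.52 and 3.76 in AR113Q-NCD, with no overlap (0.76 ± 0.20, adjusted p 0.0143). On HFD it was 2.72, 2.98, 3.75 and 2.71 in CTR and 3.86, 3.69, 3.43, 3.20 and 4.15 in AR113Q, where CTR-HFD replicate 3 lay among the AR113Q samples (0.62 ± 0.21, adjusted p 0.054). In a fit with slide as a block the HFD value was 0.71 (adjusted p 0.0202), and Gys1, the muscle glycogen synthase, was then also called higher (0.28, adjusted p 0.0399, against 0.26 ± 0.09 and 0.0543 without it). Quantile normalization also called Gbe1 on HFD (0.71, adjusted p 0.031) and Gys1 on both diets (0.33 and 0.43, adjusted p 0.00959 and 0.0025). With the slide block 5 members were called higher on HFD. Stbd1, which ties glycogen to membranes, was called higher on HFD (0.52 ± 0.15, adjusted p 0.0268; NCD 0.14 ± 0.15), and the difference between diets was not called.

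Ugp2, which makes UDP-glucose, the donor of glycogen synthesis, read 5.61, 5.44, 5.33, 5.49 and 5.37 in CTR-NCD and 5.0, 5.38, 5.17, 5.29 and 5.09 in AR113Q-NCD. On HFD it was 5.71, 5.72, 5.75 and 5.59 in CTR and 4.93, 5.09, 4.68, 4.99 and 5.09 in AR113Q. The groups overlapped on NCD (-0.26 ± 0.09, adjusted p 0.0495) and not on HFD (-0.74 ± 0.09, adjusted p 4.24e-05). The NCD call of Ugp2 was lost after quantile normalization (adjusted p 0.185) and in 20 alternatives in all, 15 of which left out 1 sample. Gyg, glycogenin, changed by -0.34 ± 0.08 and -0.57 ± 0.09 (adjusted p 0.0078 and 0.000233), and the NCD change was not called after quantile normalization (adjusted p 0.0615). Of the glycogen-targeting subunits of protein phosphatase 1, Ppp1r3a was lower on both diets (-0.46 ± 0.15 and -0.62 ± 0.16, adjusted p 0.0465 and 0.0131). Its NCD call was lost after quantile normalization (adjusted p 0.061) and in 19 alternatives in all, 13 of which left out 1 sample. Ppp1r3c read 5.30, 5.12, 4.76, 4.45 and 5.56 in CTR-NCD and 3.98, 4.14, 4.50, 4.01 and 4.10 in AR113Q-NCD, which overlapped (-0.89 ± 0.20, adjusted p 0.00554), and was not called on HFD (-0.55 ± 0.22, adjusted p 0.097). Pgm5, a phosphoglucomutase relative at cell junctions, stood at 0.54 ± 0.18 on NCD (adjusted p 0.0503) and was called with the replicate number as a block (adjusted p 0.0380).

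In the glycerol 3-phosphate shuttle, which passes cytosolic electrons to mitochondria, the cytosolic Gpd1 was lower on both diets (-0.55 ± 0.14 and -0.65 ± 0.15, adjusted p 0.0122 and 0.00589) and the mitochondrial Gpd2 was not called (-0.23 ± 0.15 and -0.07 ± 0.16). Gpi1, the glucose 6-phosphate isomerase, was at -0.25 ± 0.09 on NCD and -0.28 ± 0.10 on HFD (adjusted p 0.0757 and 0.0618). Gpi1 was called lower on both diets in a fit with slide as a block (adjusted p 0.0112 and 0.00727). It was also called lower on both with the replicate number as a block (adjusted p 0.0112 and 0.00467). Quantile normalization turned its value to 0.03 on NCD and 0.08 on HFD, not called (adjusted p 0.852 and 0.522). A dimmer probe was called lower on both diets without a block (-0.28, adjusted p 0.0230, and -0.30, adjusted p 0.0212).

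The balance between partner isoforms was read within each array, as the log2 difference of their probes, which a constant scaling of the array does not touch. Each gene was read by its brightest probe. A shift that depends on the brightness of the probe can still enter the difference. The second partner had the brighter probe in every pair except Hk1 minus Hk2. The part of brightness in the pairs was not tested. Hk2 and Pygm each recur among the pairs, so the pairs are not independent. The 9 pairs were compared on each diet by exact 2-sided permutation tests, adjusted over the 18 tests. The smallest exact p that the design allows is 0.00794. On NCD 7 of 9 pairs shifted, each toward the partner named first, and on HFD 8 of 9 did, while after quantile normalization 6 of 9 did on each diet. In Hk1 minus Hk2, Aldoc minus Aldoa and Gpd2 minus Gpd1 the second partner was called lower on NCD. The first partners of these pairs changed by -0.03, 0.04 and -0.23 and were not called. Pgam1 minus Pgam2 moved up by 1.20 ± 0.14 (SE) on NCD and 0.97 ± 0.19 on HFD, and Eno1 minus Eno3 by 0.67 ± 0.12 and 0.86 ± 0.14. All 4 of these had an exact adjusted p of 0.0159.

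Pygl minus Pygm moved by 1.37 ± 0.34 on NCD (exact test, adjusted p 0.0159) and 0.83 ± 0.30 on HFD (0.0286, and 0.219 after quantile normalization). Ldhb minus Ldha moved by 1.61 ± 0.48 on NCD (exact test, adjusted p 0.0159) and by 0.84 ± 0.78 on HFD, where it missed the threshold (exact test, adjusted p 0.286). Gpd2 minus Gpd1, Hk1 minus Hk2 and Aldoc minus Aldoa were called on both diets, with differences from 0.31 to 0.75. Aldoc minus Aldoa on NCD was no longer called after quantile normalization (exact test, adjusted p 0.706). Hk3 minus Hk2 and Pygb minus Pygm were called on HFD and not on NCD, and the difference between the diets was not tested for pairs. After quantile normalization Pygb minus Pygm was not called on HFD (exact test, adjusted p 0.121). The HFD call of Hk3 minus Hk2 was lost in 7 alternatives, each without 1 sample. The NCD call of Hk1 minus Hk2 was lost in 9, 7 of which left out 1 sample. For Pygl minus Pygm on HFD these counts were 10 and 8.

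**Figure D3:**
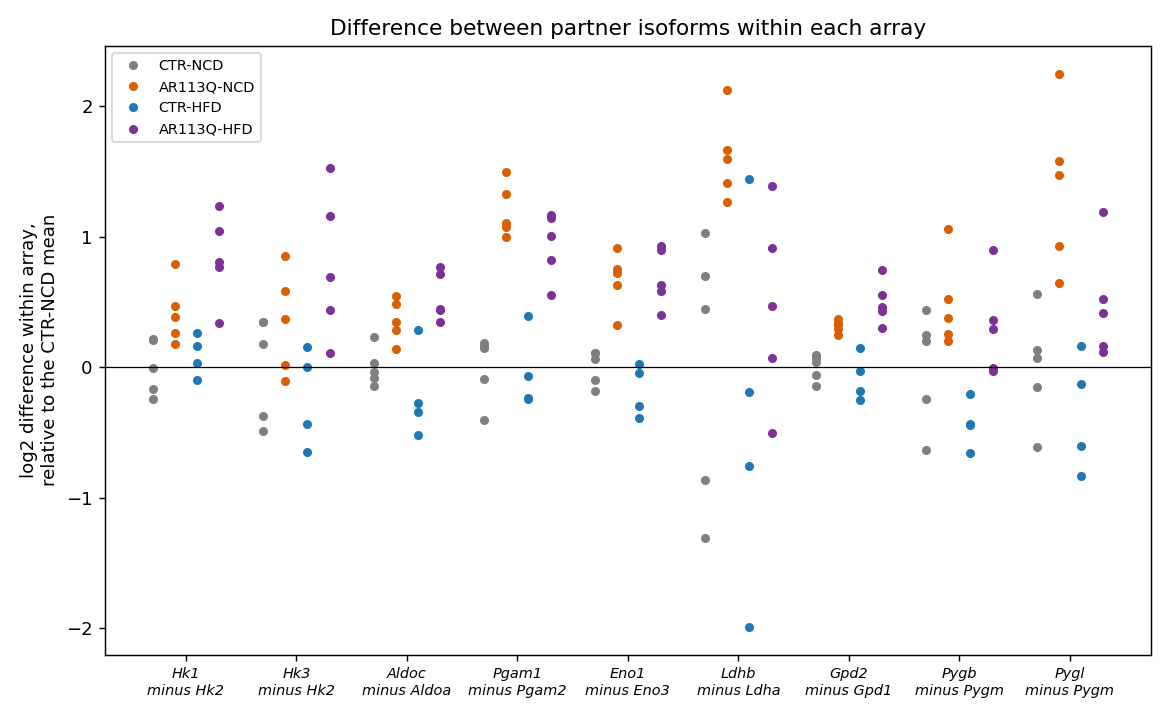
Log2 difference between the probes of 9 isoform pairs within each array, minus the CTR-NCD mean of the pair (y axis), for every sample of the 4 groups. The AR113Q points lie above the CTR points of the same diet without overlap for Eno1 minus Eno3, Pgam1 minus Pgam2 and Gpd2 minus Gpd1 on NCD and on HFD.

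No member was called by limma for diet or for the interaction of genotype and diet. HFD against NCD in AR113Q gave 0 members at an adjusted p under 0.05, with 0% of all genes called higher and 0.0202% lower. Before adjustment 6 members had a p under 0.05 (Hk2, Ldhb, Pgam1, Pygl, Stbd1 and Ugp2), against 6.67% of all genes. In the same comparison 15 of 16 slow fiber genes had a negative log2 fold change (median -1.35), 6 of them at an unadjusted p under 0.05 and 0 at an adjusted p under 0.05. Ldhb (-1.20), Pygl (-0.92) and Pgam1 (-0.37) were negative too, and the part of slow fibers in these values was not tested. In CTR the member counts were 0 and 2 (Pygb and Ugp2), against 0% and 8.39% of all genes. For the interaction they were 0 and 1 (Ugp2), against 0% and 4.6% of all genes. Quantile normalization also called 0 members in each of these comparisons. Ugp2 changed with HFD by 0.24 ± 0.09 in CTR and -0.23 ± 0.09 in AR113Q, an interaction of -0.47 ± 0.13 (unadjusted p 0.00184, adjusted p 0.914).

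The median log2 fold change of all genes differed between bands of probe brightness. It was -0.12 on NCD and -0.13 on HFD in the dimmest 50% of genes. Between the 50th and 80th percentile of brightness it was 0.02 and -0.01. The 12 brightest members lay in the brightest 2% of genes, where the median log2 fold change of all 495 genes was -0.12 on NCD and -0.24 on HFD and that of the 12 members -0.44 and -0.49. Quantile normalization moved the medians of the 495 genes to 0.05 and 0.04. The part of brightness in the members' values was not tested.

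**Figure D4:**
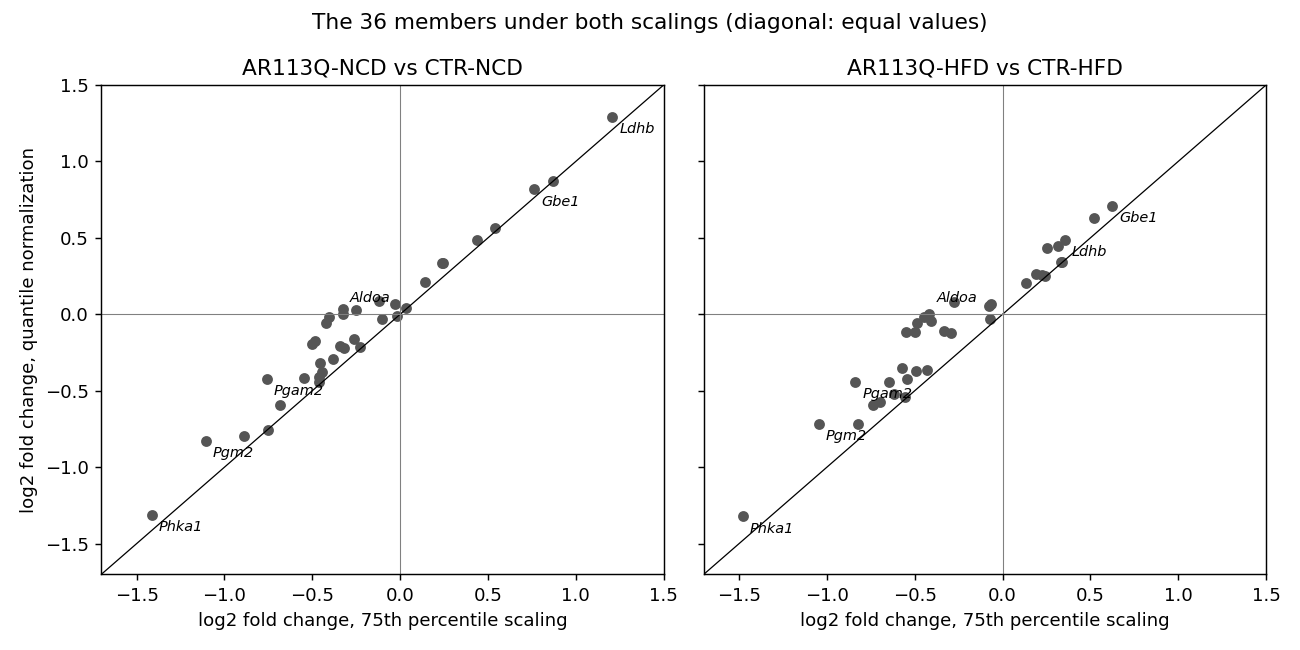
Log2 fold change of the 36 genes under the 75th percentile scaling (x axis) and after quantile normalization (y axis), on NCD (left) and HFD (right). Points above the diagonal are less negative after quantile normalization. Aldoa lies at 0 on the y axis on both diets and Phka1 near the diagonal.

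Markers of fiber type moved with these genes at the 75th percentile scaling. Of 15 fast fiber genes 12 were lower on NCD and 13 on HFD, against 9.04% and 10.2% of all genes. After quantile normalization 6 and 4 were lower, against 8.24% and 7.97% of all genes. The median of the fast fiber genes was -0.394 on NCD and -0.498 on HFD, and 0 and -0.032 after quantile normalization. At the 75th percentile scaling their mean level lay between 7.51 and 7.81 in CTR and between 7.19 and 7.37 in AR113Q on NCD. On HFD it lay between 7.45 and 7.78 in CTR and between 7.02 and 7.26 in AR113Q, so the genotypes did not overlap on either diet. Of 16 slow fiber genes 3 were called higher on each diet (Myl6b, Casq2 and Actn2), against 8.31% of all genes on NCD and 7.74% on HFD. The slow fiber genes had positive log2 fold changes in 16 of 16 on NCD (median 1.51) and 14 of 16 on HFD (median 0.84). Their mean level given above did not overlap between the genotypes on NCD and did on HFD. The part of fiber type in the members' values was not tested. Of 8 white adipocyte, 8 macrophage, 6 endothelial and 5 red blood cell genes, 0 were called on either diet by limma. Of 8 Schwann cell genes 1 was called, S100b, higher on NCD, and of 5 brown adipocyte genes 1 was called, Cox8b, lower on HFD. After quantile normalization 3 brown adipocyte genes were called higher and 1 red blood cell gene lower on NCD.

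Of 43 other genes of these pathways on a fixed list, 37 were tested. On NCD 10 were lower and 3 higher, with a median of -0.09, and on HFD 10 were lower and 2 higher, with a median of -0.24. Over all genes the shares were those given above, 9.04% lower and 8.31% higher on NCD and 10.2% and 7.74% on HFD, and the medians -0.06 and -0.08. Bpgm, a bisphosphoglycerate mutase, changed by -0.78 and -0.84 (adjusted p 0.000151 and 0.000122). The pyruvate kinase Pkm was lower on NCD (-0.38, adjusted p 0.00679) and at -0.28 on HFD (adjusted p 0.0510), and quantile normalization put it at -0.11 and 0.00. Gsk3a, Ppp1cc and Pgm2l1 were lower on both diets. Galm, Slc37a4 and Ppp1r3b were called lower on NCD and not on HFD, and Pgam5, Gys2, Gsk3b and Ppp1ca on HFD and not on NCD, but no interaction of genotype and diet was called for any gene. The phosphatase subunits Ppp1r3d (0.72 and 0.40) and Ppp1r3e (0.59 and 0.94) were higher on both diets, and Adpgk (0.35) on NCD.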

How the data were processed

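Total RNA of 19 quadriceps samples was measured on Agilent one-color arrays (Cy3) on 5 slides. The authors scanned the arrays and extracted spot intensity values with Agilent Feature Extraction 10.7.3.1, which subtracts background within the array, and deposited them with 0 or 1 flags. The deposited series table holds the authors' log2 values for 25944 transcripts and was used as an alternative. Its log2 scale was read from its values, and its normalization is not given in the sources used here. From the spots, control rows were left out, log2 of the processed signal was taken, spots of a probe were averaged, and the 75th percentile of the array was subtracted. Probes well above background on at least 4 arrays were tested with limma (version 3.58.1, R 4.3.3) in 1 fit over 4 groups. A gene was read by its brightest probe. Values by sample were given for up to 12 members with the smallest adjusted p and for isoform partners, and dimmer probes where they differed in call. The members and gene lists were chosen with earlier results of these data known. The limma fit was tested on simulated arrays with known changes and independent noise, and the permutation test on known cases. Scaling was not simulated. Samples with the same replicate number correlated at 0.237 to 0.447 on NCD. They also shared a slide there, so a pairing of samples cannot be told apart from the slide. On HFD the correlations ran from -0.206 to 0.434. The main fit used no pairing and no block on either diet. Slide and replicate number entered as blocks only in alternatives, on both diets. Alternatives covered scaling, background, filters, slide, pairing, variance, probes and left-out samples. Probe coordinates are in mm9. Whether a probe lies in an exon or UTR was not analysed here, because the annotation used here is of another build. Some genes that the counts include are not reported here by name.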

Additional observations from a re-analysis of the deposited data

Results flagged for a closer look

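In 7 of 144 groups of member values a sample lay apart from the others of its group, where chance gives about 7.2. They were Gpi1 (7.50, next 7.72) and Pgk1 (6.66, next 6.93) in AR113Q-NCD replicate 3, Hk3 (-3.94, next -3.47) and Pgam1 (3.002, next 2.52) in CTR-HFD replicate 3, Gyg (6.31, next 6.49) in AR113Q-HFD replicate 3, Hk1 (4.45, next 4.66) in AR113Q-HFD replicate 4, and Pgm1 (-5.82, next -5.14) in CTR-HFD replicate 1. No member had an interaction of genotype and diet at an adjusted p under 0.05.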

How the results depend on the processing

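Lower and higher counts depended on the scaling. On NCD, where 21 members were lower and 3 higher, quantile normalization gave 11 and 6, median centring 7 and 1, and normexp background correction 3 and 0. On HFD, where 20 were lower and 3 higher, they gave 12 and 5, 9 and 0, and 5 and 0, and the authors' values gave 12 and 5. The authors' values gave 5 higher on NCD, as did keeping probes well above background on all arrays and an intensity trend, which also gave 5 on HFD. Adding the fold thresholds left 5 lower on NCD, and 4 lower and 0 higher on HFD, and fitting only the compared groups left 0 higher on HFD. The median of -0.324 on NCD became -0.11 with quantile normalization, -0.212 with the authors' values and -0.111 with normexp. The median of -0.413 on HFD became -0.05 and -0.065 with the first 2 of these. Isoform pairs called fell to 4 on NCD with normexp and to 5 on HFD with the authors' values. Called values that turned sign were Aldoa 0.009, Ugp2 0.041 and Aldoc minus Aldoa -0.302 with normexp, and Gapdh 0.037 with quantile normalization, all on NCD. Of the values not called, Gpi1, Hk1 and Pgm1 turned sign with quantile normalization on both diets. The cause was not tested.

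With the replicate number as a block, NCD had 22 members lower and 4 higher, and HFD 21 and 3, and on HFD Eno1 was then not called (0.305, adjusted p 0.0644) while Gbe1 was (0.603, adjusted p 0.0427). A fit with slide as a block gave 5 higher on HFD. Leaving out 1 sample at a time gave 16 to 22 lower and 1 to 5 higher on NCD, and 16 to 21 and 0 to 4 on HFD. The medians ran from -0.358 to -0.291 and from -0.439 to -0.365, and pairs called from 6 to 8 on each diet. The count higher on NCD was 1 without AR113Q-NCD replicate 2 and 5 without CTR-HFD replicate 3, and on HFD 0 without CTR-HFD replicate 2 or AR113Q-HFD replicate 1 and 1 without AR113Q-HFD replicate 2. Setting saturated spots to missing changed no value, since no spot was flagged. The number of arrays limits the precision of all values.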
